A study of Mus musculus with 5 samples.

Results

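The 10 genes described here are the circadian clock genes Per1, Per2, Per3, Cry1, Cry2, Dbp, Tef, Nr1d1, Nr1d2 and Ciart, taken as the rows of the deposited gene table whose symbol equals one of these names. Each symbol had 1 row, so the members were 10 of 78334 listed genes, and the same rows were present in all 5 libraries. The libraries are droplet 3′ counts of single barcodes from the mouse dentate gyrus (DG), the part of the hippocampus that holds the granule neurons. The study's title concerns fear-triggered reactive astrocytes and signalling through CSF2RB2, a receptor subunit.

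Each group was 1 library. The series' design gives 10 mice for each group, and the sources used here do not say how they were pooled. In the first part, dissociated cells were taken from wild-type (WT) mice 14 days after CFC training (CFC-14d) or, for the group Random-14d, the same time after random foot shocks. In the second part, nuclei from frozen tissue were taken from untrained WT mice (WT-naive), from WT mice 14 days after CFC training (WT-CFC) and from knockout mice 14 days after CFC training (KO-CFC). The labels do not spell out CFC. The title of the third library of nuclei names a Csf2rb2 knockout and its genotype tag names Csf2rb3, so its label KO-CFC is taken as a name and it is written as the KO-labelled library. No promoter or cell type that would limit the knockout is named. No time of day of collection is given for any group. Clock genes are known to change over the day, and the hour of collection and the group cannot be told apart here. With 1 library a group there is no replicate spread and no test, so every interval below is a 95% interval of counting error alone.

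The circadian clock is a loop of transcription and repression that runs in most cells of the body. BMAL1 (gene symbol Bmal1), paired with CLOCK or NPAS2, switches on target genes through E-box sequences. Among the targets are the Per and Cry genes, whose proteins return to the nucleus and repress BMAL1 and its partner, and Ciart, which encodes another repressor of that pair. Nr1d1 and Nr1d2 encode REV-ERB alpha and beta, nuclear receptors that repress Bmal1 and Npas2. Dbp and Tef encode PAR bZIP factors that activate genes through D-box sequences, and Dbp is a classical strongly rhythmic output of the loop. Per1 and Per2 also respond to glucocorticoids and to neuronal activity. In the brain the loop runs in neurons and in astrocytes.

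The promoters below show where these 2 response elements stand upstream of the members. They are the 250 bases before the transcription start in RefSeq, build GRCm38.p6, read 5′ to 3′ on the gene's strand. Of the 10 members, 9 had an entry, and Per2 is named only. Capitals mark the E-box CACGTG, which reads the same on both strands, and the D-box letters TTANGTAA, searched on both strands. No entry of a member held both motifs, so the matches could not overlap. Ciart (chr3:95882229-95882478, minus strand) held 3 copies of CACGTG, 116, 58 and 44 bases before the start. Per3 (chr4:151044666-151044915, minus strand) held 2 copies of TTANGTAA, 205 and 158 bases before the start. The first of the entries of Per1 (chr11:69098699-69098948, plus strand) held 1 CACGTG at 166 bases, Cry1 (chr10:85185055-85185304, minus strand) held 1 at 60 bases, and the first entry of Tef (chr15:81802423-81802672, plus strand) held 1 at 127 bases. The second entry of Tef held 1 CACGTG at 138 bases. Neither motif stood in the second entry of Per1 or in Cry2 or Nr1d2, which are not printed. Of the 9 members with an entry, 4 held CACGTG and 1 held TTANGTAA. Dbp (chr7:45704997-45705246, plus strand) and Nr1d1 (chr11:98775378-98775627, minus strand) are printed because the largest ratios below are theirs, and neither motif was among these letters.
Ciart: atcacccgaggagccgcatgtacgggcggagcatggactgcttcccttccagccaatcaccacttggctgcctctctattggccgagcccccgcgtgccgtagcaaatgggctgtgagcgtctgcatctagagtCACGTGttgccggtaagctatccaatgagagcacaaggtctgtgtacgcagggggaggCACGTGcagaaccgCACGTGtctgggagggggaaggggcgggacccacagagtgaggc
Per3: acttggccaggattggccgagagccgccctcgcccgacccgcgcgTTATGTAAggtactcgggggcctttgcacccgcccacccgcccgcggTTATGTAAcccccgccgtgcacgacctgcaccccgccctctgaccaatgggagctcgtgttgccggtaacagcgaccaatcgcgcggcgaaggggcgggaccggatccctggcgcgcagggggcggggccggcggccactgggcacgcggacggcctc
Per1: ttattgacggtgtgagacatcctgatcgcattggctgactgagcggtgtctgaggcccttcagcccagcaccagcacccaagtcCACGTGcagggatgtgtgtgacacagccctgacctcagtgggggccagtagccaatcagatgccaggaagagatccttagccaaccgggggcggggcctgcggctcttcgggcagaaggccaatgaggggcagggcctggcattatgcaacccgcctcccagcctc
Cry1: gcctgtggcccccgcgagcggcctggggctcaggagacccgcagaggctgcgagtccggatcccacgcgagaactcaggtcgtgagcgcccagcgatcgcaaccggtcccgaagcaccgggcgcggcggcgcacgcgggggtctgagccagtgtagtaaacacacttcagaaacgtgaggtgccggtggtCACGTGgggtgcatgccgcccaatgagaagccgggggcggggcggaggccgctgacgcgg
Tef: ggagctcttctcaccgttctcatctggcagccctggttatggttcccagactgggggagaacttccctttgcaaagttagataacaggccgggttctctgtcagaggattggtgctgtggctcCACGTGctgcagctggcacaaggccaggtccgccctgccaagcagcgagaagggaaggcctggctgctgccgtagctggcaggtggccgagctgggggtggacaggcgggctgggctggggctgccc
Dbp: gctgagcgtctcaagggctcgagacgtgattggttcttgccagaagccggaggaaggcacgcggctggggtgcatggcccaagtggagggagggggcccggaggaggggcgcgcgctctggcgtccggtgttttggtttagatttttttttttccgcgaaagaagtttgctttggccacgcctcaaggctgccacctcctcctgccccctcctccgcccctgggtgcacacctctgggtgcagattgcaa
Nr1d1: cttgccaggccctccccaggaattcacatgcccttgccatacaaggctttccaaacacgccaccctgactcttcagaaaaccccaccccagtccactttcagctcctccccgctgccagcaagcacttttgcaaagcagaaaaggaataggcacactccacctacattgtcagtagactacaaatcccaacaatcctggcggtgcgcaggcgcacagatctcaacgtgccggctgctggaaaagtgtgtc
Over all 32851 promoters of the same length, 6.021% held CACGTG and 2.061% held TTANGTAA. At least 3 copies of CACGTG stood in 20 promoters (0.061%), and at least 2 copies of TTANGTAA in 24 (0.073%). A match is a string of letters, not a shown binding site. The files were counted on GRCm39, so no coordinate of a counted gene is given.

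The deposited libraries held 8395 to 32827 barcodes and 38045642 to 126937815 unique molecular identifiers (UMIs), with a median of 1997 to 3988 UMIs a barcode. After filters 7708 to 28532 barcodes were analysed. Barcodes were clustered without the clock genes and named by markers, with "-like" added to each name. Barcodes of unnamed clusters count in whole-library values but are left out of every comparison by class. Their share of cells was 41.9% for CFC-14d and 22.6% for Random-14d, holding 707 of 2240 and 515 of 2225 Dbp counts. Among nuclei WT-CFC had the largest unnamed share, 45.3%, against 32.4% of the KO-labelled library and 28.1% of WT-naive. The part of these unequal shares in the results by class was not tested. CFC-14d and Random-14d shared 282 barcode sequences, the 3 libraries of nuclei shared 25 to 32 in each pair, and CFC-14d and WT-CFC shared 1. Csf2rb2, the gene named in the knockout's title, was at 14.6, 18.2 and 10.3 CPM (counts scaled to a total of 1000000) over all nuclei of WT-naive, WT-CFC and the KO-labelled library and at 3.55 and 4.02 CPM in the cells of CFC-14d and Random-14d. In mossy cell-like nuclei, where it is a marker, it was at 98.7, 116 and 91.7 CPM, so its RNA was not absent under the knockout label. The deleted part is not named, and a 3′ tag outside it would not check the genotype. The KO-labelled library stood apart in several values: Xist was at 617 CPM against 2.95 in WT-naive and 1.90 in WT-CFC, and the labels give no sex. T or NK cell-like nuclei numbered 278 there against 1 and 0. Actg1, an actin gene, was at 18.7, 64.6 and 112 CPM in WT-naive, WT-CFC and the KO-labelled library, and Malat1 at 156118, 135563 and 176215 CPM. Their part in the results below was not tested.

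Over all nuclei of a library, Dbp and Nr1d1 had their lowest level in WT-naive, a middle level in WT-CFC and their highest in the KO-labelled library. Dbp was at 4.19, 7.01 and 10.7 CPM and Nr1d1 at 2.06, 4.27 and 6.11 CPM in that order. Both log2 ratios of WT-CFC over WT-naive were past 1.5-fold (0.74 for Dbp and 1.05 for Nr1d1). These were 2 of 10 members higher, where 4.87% of all 26192 genes with at least 50 counts were higher and 5.07% lower by that fold, and no member was lower. In the KO-labelled library against WT-naive 3 of 10 members were past 1.5-fold higher, namely Dbp (log2 ratio 1.35), Nr1d1 (1.57) and Ciart (0.73), where 25.3% of all genes were higher and 8.55% lower. Against WT-CFC 2 of 10 were higher (Ciart 0.66, Dbp 0.61), against 21.8% of all genes higher and 6.39% lower. The members' shares in the KO-labelled library were close to these backgrounds. Bmal1 itself stood at 50.6, 52.5 and 43.6 CPM. Whole-library levels also depend on the mix of classes. CA3 or CA2 pyramidal neuron-like nuclei, which ranked last of 9 classes for Dbp, made up 23.3% of nuclei in WT-naive. They made up 13.3% in WT-CFC and 3.46% in the KO-labelled library. The part of this shift in the whole-library values was not tested. In the cells, no member differed by 1.5-fold over the whole library, where 2.95% of genes were higher and 1.97% lower in CFC-14d than in Random-14d.

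By cell type, astrocyte-like nuclei had the highest level of Per3, Cry2 and Nr1d1 among the 9 classes with at least 100 nuclei in each of the 3 libraries, and this held in every library. The class held 643, 768 and 389 nuclei in WT-naive, WT-CFC and the KO-labelled library. All 12 astrocyte markers were detected in it in each library, summing to 10295, 12370 and 10397 CPM. Levels below are CPM of the class's summed counts, and each gene is compared with itself across classes.

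**Figure D1:**
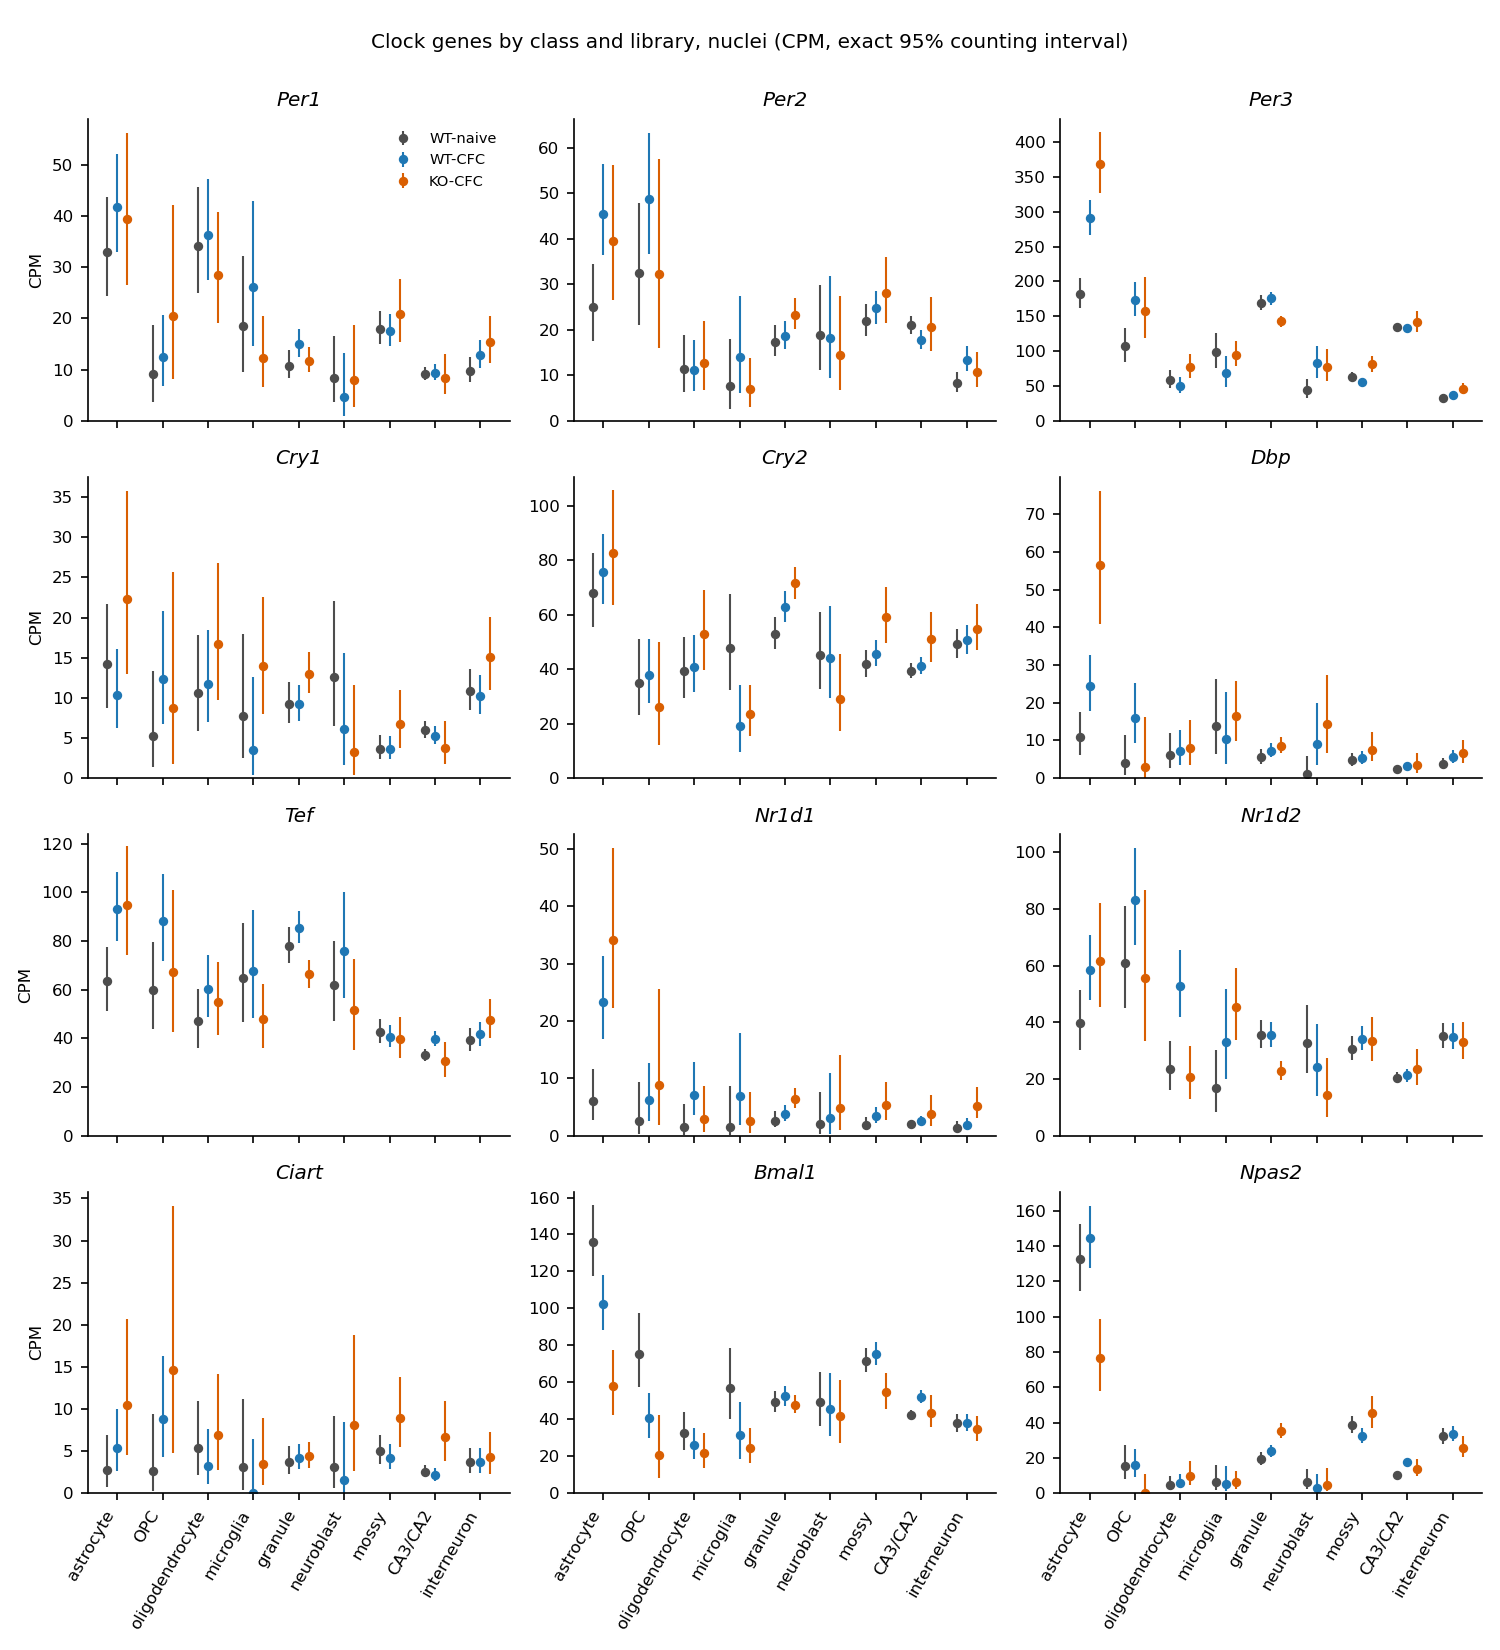
Level of each member and of Bmal1 and Npas2 in 9 classes of nuclei, in CPM on the vertical axis of each panel, with 1 point a library and the exact 95% counting interval as a bar. In the astrocyte-like class Per3 reads 182, 291 and 368 CPM and Dbp 10.8, 24.4 and 56.5 CPM from WT-naive through WT-CFC to KO-CFC, while Bmal1 reads 136, 102 and 57.9 CPM.

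Among the repressors of the loop, Per3 in astrocyte-like nuclei was at 182, 291 and 368 CPM (270, 537 and 280 counts) in WT-naive, WT-CFC and the KO-labelled library. The intervals were 161 to 205, 267 to 317 and 326 to 414 CPM, so the 3 libraries do not overlap. In each library the level was above that of 7 of the 8 other classes beyond counting error, and the interval of granule neuron-like nuclei overlapped it in at least 1 library (169, 175 and 142 CPM). Oligodendrocyte precursor cell (OPC)-like nuclei held 107, 173 and 158 CPM and CA3 or CA2 pyramidal neuron-like (CA3/CA2-like) nuclei 134, 133 and 142 CPM. Mossy cell-like nuclei held 62.8, 55.7 and 80.5 CPM. Interneuron-like nuclei held the lowest Per3 level of the 9 classes, at 33.0, 36.5 and 45.8 CPM.

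Cry2, a repressor of the cryptochrome pair, was at 68.2, 75.9 and 82.8 CPM in astrocyte-like nuclei, and these intervals overlap one another. Granule neuron-like nuclei followed at 53.1, 63.0 and 71.5 CPM, not apart from the astrocyte-like class in every library. Cry1, its partner, stood at 14.2, 10.3 and 22.4 CPM on 21, 19 and 17 counts in astrocyte-like nuclei, and its order among classes is mostly within counting error. Per1 was at 33.1, 41.7 and 39.4 CPM in astrocyte-like nuclei and at 34.2, 36.4 and 28.5 CPM in oligodendrocyte-like nuclei. These glial levels lay above those of granule neuron-like nuclei (10.8, 15 and 11.7 CPM) and of CA3/CA2-like nuclei (9.20, 9.38 and 8.39 CPM). Per2 was at 25.0, 45.5 and 39.4 CPM in astrocyte-like nuclei and 32.5, 48.6 and 32.1 CPM in OPC-like nuclei, whose intervals overlap. Ciart was low in every class, and in astrocyte-like nuclei it stood at 2.70, 5.42 and 10.5 CPM on 4, 10 and 8 counts.

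Of the D-box factors, Dbp in astrocyte-like nuclei was at 10.8, 24.4 and 56.5 CPM on 16, 45 and 43 counts. The intervals were 6.17 to 17.5, 17.8 to 32.6 and 40.9 to 76.2 CPM, again apart in all 3 libraries. Dbp in WT-naive was higher in microglia-like nuclei (13.9 CPM on 9 counts), so the astrocyte-like class was the highest in 2 of the 3 libraries. Granule neuron-like nuclei held 5.55, 7.23 and 8.60 CPM of Dbp and CA3/CA2-like nuclei 2.48, 3.17 and 3.36 CPM. Tef was at 63.5, 93.2 and 94.7 CPM in astrocyte-like nuclei and at 78.0, 85.5 and 66.3 CPM in granule neuron-like nuclei.

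Of the REV-ERB genes, Nr1d1 in astrocyte-like nuclei was at 6.08, 23.3 and 34.2 CPM on 9, 43 and 26 counts, with intervals of 2.78 to 11.5, 16.9 to 31.4 and 22.3 to 50.1 CPM. WT-naive lies below both other libraries, which overlap each other. In the other 8 classes Nr1d1 was at most 8.77 CPM in any library. Nr1d2 was at 39.8, 58.5 and 61.8 CPM in astrocyte-like nuclei, below OPC-like nuclei in 2 libraries (61.1, 83.1 and 55.5 CPM). CA3/CA2-like nuclei held 20.4, 21.3 and 23.5 CPM of it.

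The activators are not members of the list. In the same astrocyte-like nuclei Bmal1 was at 136, 102 and 57.9 CPM (201, 189 and 44 counts), highest in WT-naive and lowest in the KO-labelled library. Npas2 was at 132, 144 and 76.3 CPM and stood apart from the next class in every library, since mossy cell-like nuclei followed at 38.6, 32.4 and 45.4 CPM. Clock differed from these activators in its rank among classes, not in its order of libraries against Bmal1. At 94.5, 76.98 and 64.4 CPM the astrocyte-like class ranked last of the 9 classes, though not apart from the next in every library. Oligodendrocyte-like nuclei ranked first for Clock, at 113 to 139 CPM.

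The dissociated cells were a separate preparation and are set beside the nuclei without a test. There 17 classes were compared, and astrocyte-like cells (703 in CFC-14d, 647 in Random-14d) had the highest level of 5 members in both libraries. Per3 was at 104 and 78.8 CPM in them, apart from fibroblast-like cells at 45.6 and 44.4 CPM. Cry2 was at 52.0 and 50.7 CPM, apart from pericyte-like cells at 24.7 and 23.1 CPM. The other 3 were Dbp (65.2 and 72.5 CPM), Nr1d1 (27.2 and 28.1 CPM) and Nr1d2 (28.7 and 27.3 CPM), each with pericyte-like cells next, at 54.7 and 47.9, at 26.0 and 18.6, and at 26.7 and 23.7 CPM. These pairs overlap in at least 1 library.

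**Figure D2:**
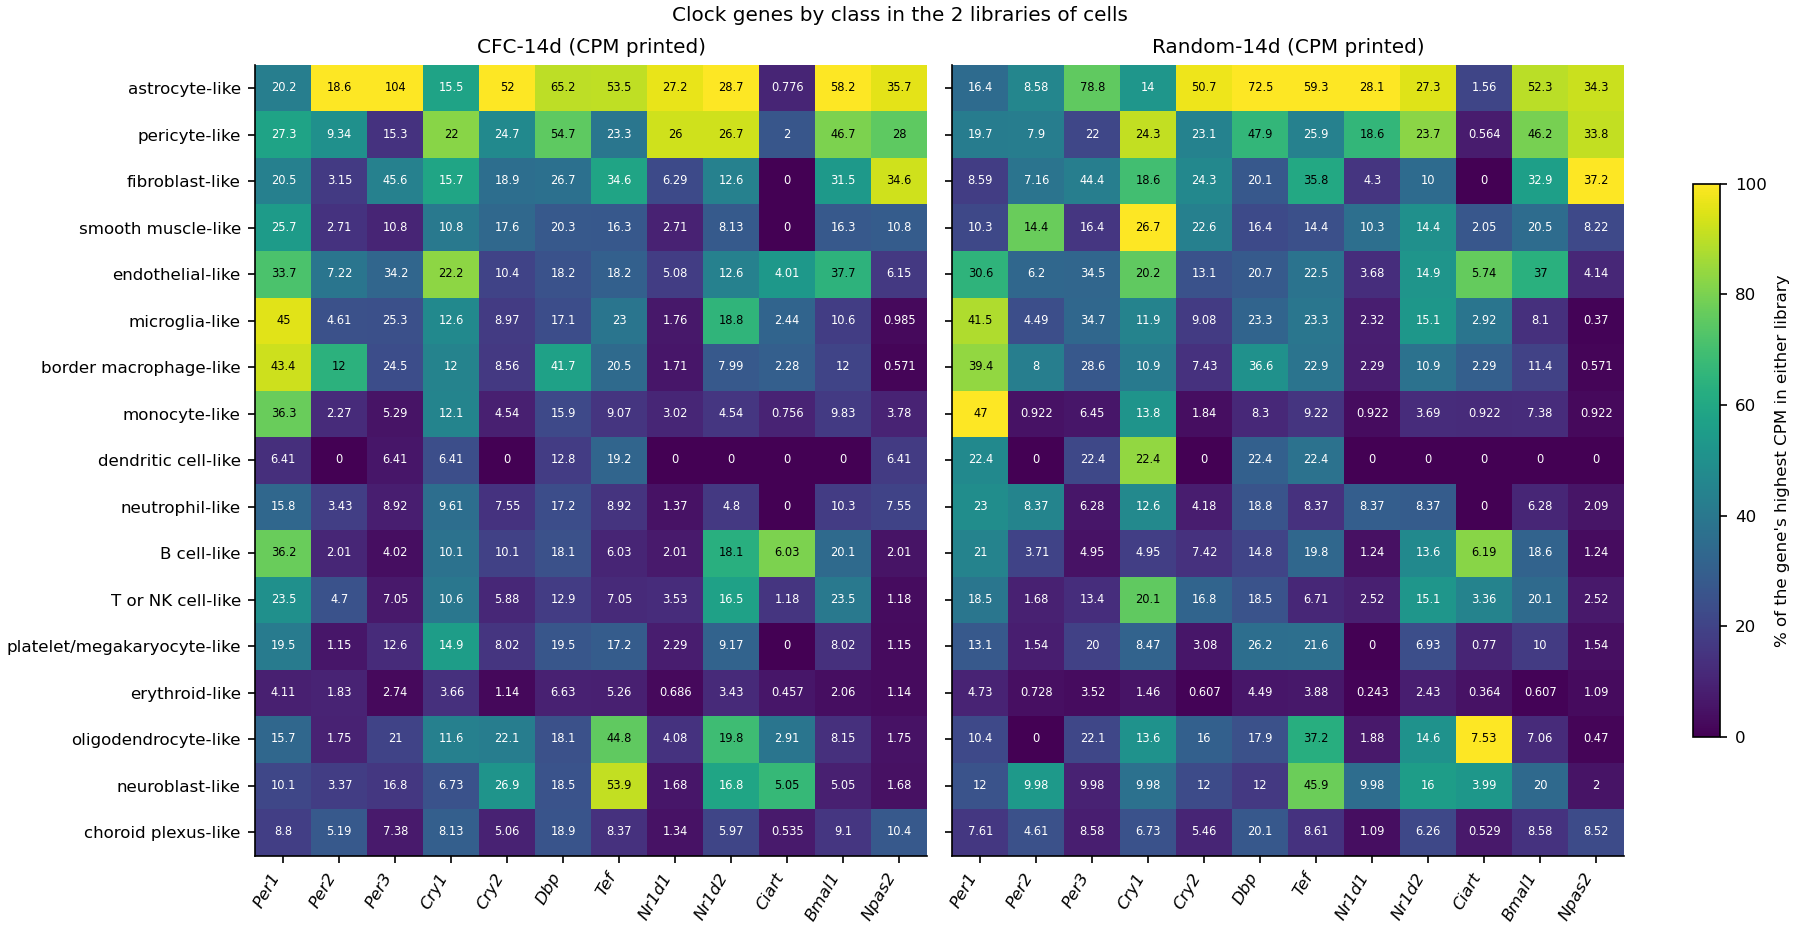
Levels of the members and of Bmal1 and Npas2 (columns) in 17 classes of dissociated cells (rows), with CPM printed in each cell and the colour giving the percent of that gene's highest level in either library. Astrocyte-like cells carry the highest Per3 (104 and 78.8 CPM), and pericyte-like cells come next for Dbp at 54.7 and 47.9 CPM.

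Per1 had another order in the cells. Its highest levels were in microglia-like cells (45.0 and 41.5 CPM), border-associated macrophage-like cells (43.4 and 39.4 CPM) and monocyte-like cells (36.3 and 47.0 CPM), which overlap one another, while astrocyte-like cells held 20.2 and 16.4 CPM. Endothelial-like cells held 33.7 and 30.6 CPM of Per1.

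Cry1 was highest in pericyte-like (22 and 24.3 CPM) and endothelial-like cells (22.2 and 20.2 CPM) among classes with more than 10 counts in each library. Ciart was at 6.03 and 6.19 CPM in B cell-like cells on 3 and 5 counts and at 4.01 and 5.74 CPM in endothelial-like cells. Border-associated macrophage-like cells held 41.7 and 36.6 CPM of Dbp beside 12 and 11.4 CPM of Bmal1. Microglia-like cells held 17.1 and 23.3 CPM of Dbp, and their Npas2 was near 0, at 0.985 and 0.370 CPM. Erythroid-like cells held the lowest levels of Per1 (4.11 and 4.73 CPM) and Dbp (6.63 and 4.49 CPM). Across both preparations Per1 in microglia-like barcodes read 45.0 and 41.5 CPM in cells and 18.5, 26.1 and 12.2 CPM in nuclei.

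The share of barcodes with at least 1 UMI was also compared at equal depth. Each barcode was thinned to 1000 UMIs, which left out 59, 42 and 50 shallower astrocyte-like nuclei. Of the rest, 13.4% (10.7 to 16.4), 24% (20.9 to 27.2) and 30.1% (25.3 to 35.3) carried Per3 in WT-naive, WT-CFC and the KO-labelled library, with exact Clopper-Pearson intervals. Unthinned, the shares were 27.7%, 45.6% and 45.5%. For Dbp the thinned shares were 1.71%, 2.62% and 5.01%, and their intervals overlap one another, so this order is within counting error. No class is known to lack these genes, so the class with the lowest Per3 level, interneuron-like nuclei, is given beside them: 5.03%, 3.70% and 3.87% carried Per3 and 0.387%, 0.444% and 1.51% carried Dbp after thinning. The median depth was 1757, 2076 and 1674 UMIs in astrocyte-like and 7463.5, 9059 and 6087.5 UMIs in interneuron-like nuclei.

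The first comparison of nuclei sets WT-CFC against WT-naive and so asks what differed 14 days after CFC training. In astrocyte-like nuclei every one of the 8 members with at least 50 counts over both libraries was higher in WT-CFC, and 4 of them by 1.5-fold or more. Of all genes measured in that class, 9.44% were higher by that fold and 6.5% lower, and no member was lower. Cry1 and Ciart had fewer counts and are not among the 8. Log2 ratios were 1.88 for Nr1d1 (0.88 to 3.16), 1.15 for Dbp (0.32 to 2.10), 0.86 for Per2 (0.29 to 1.47) and 0.67 for Per3 (0.46 to 0.89). Those of Tef and Nr1d2 (0.55 each), Per1 (0.33) and Cry2 (0.15) were under the fold. The median of the 8 was 0.61, against 0.06 over all genes measured. The median is a description, and the 50-count minimum favours a member that is high in 1 library.

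**Figure D3:**
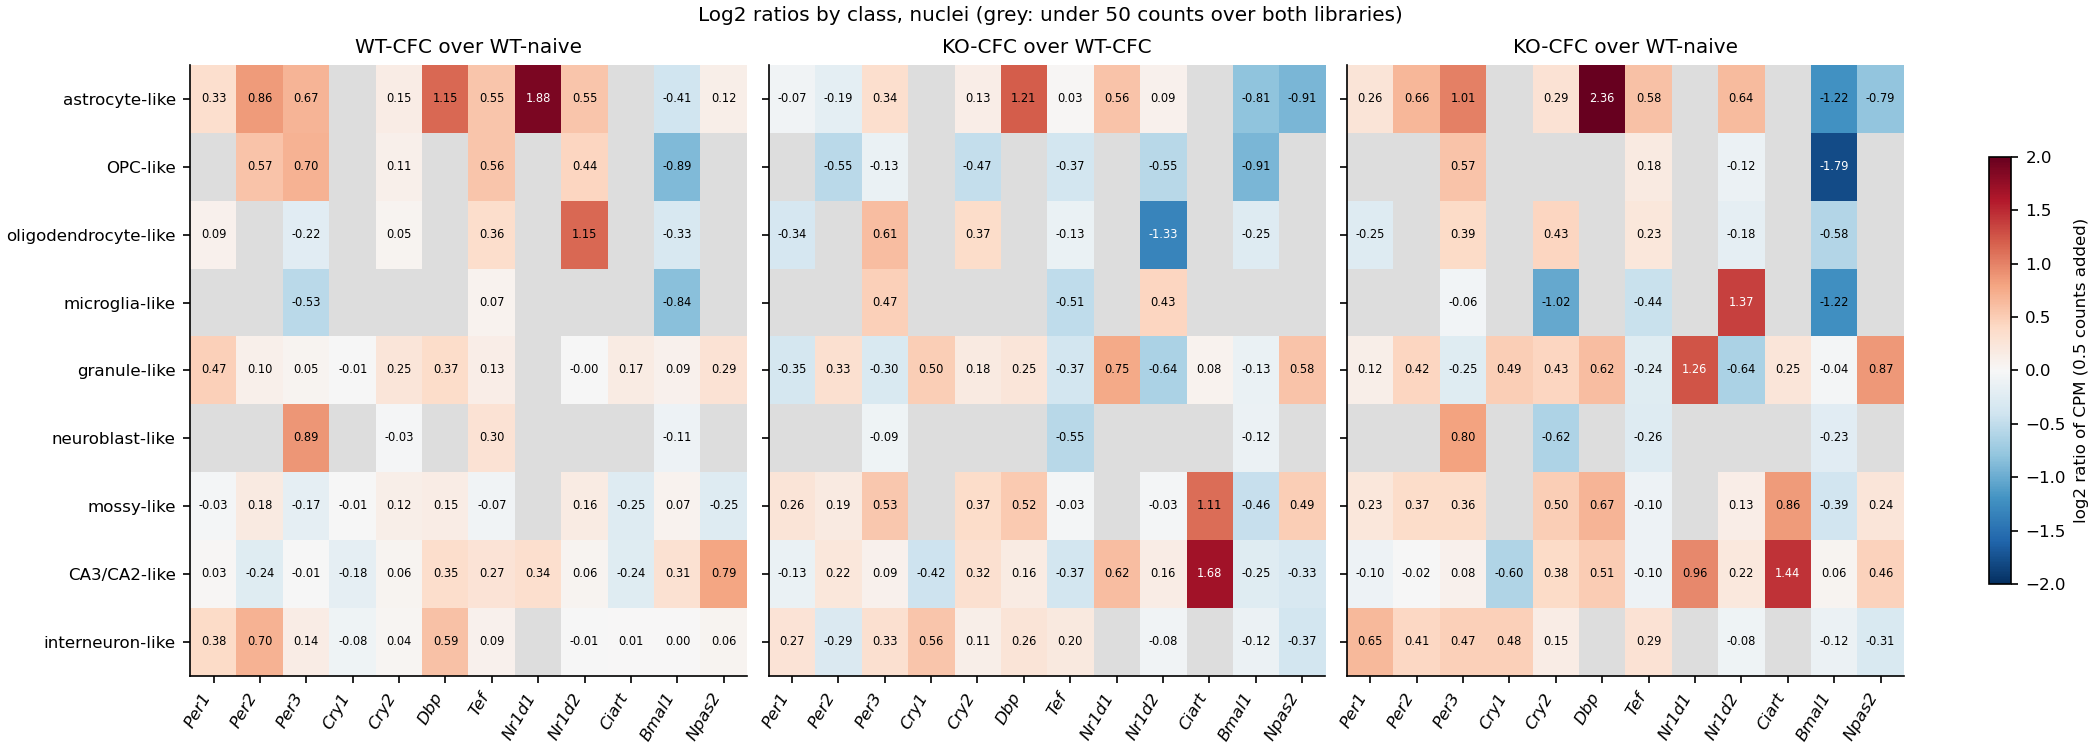
Log2 ratios of CPM (0.5 counts added) of the members, Bmal1 and Npas2 (columns) in 9 classes of nuclei (rows) for the 3 comparisons of libraries. Red is higher and blue lower in the library named first, and grey has under 50 counts over both. The astrocyte-like row runs from 0.15 to 1.88 for members in WT-CFC over WT-naive, while Bmal1 there is at -0.41.

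Over all 9 classes, 9 of 60 pairs of member and class were 1.5-fold or more higher in WT-CFC, where 6.24% of all pairs of gene and class were higher and 4.97% lower, and no member pair was lower. Of these 9 pairs, 4 were the astrocyte-like ones above. In OPC-like nuclei Per3 was at 107 and 173 CPM (log2 ratio 0.70, 0.32 to 1.09). In neuroblast-like nuclei it was at 44.1 and 82.0 CPM (0.89, 0.29 to 1.51), and the ratio turned to -0.41 with each library clustered on its own. Oligodendrocyte-like nuclei held 23.5 and 52.7 CPM of Nr1d2 (1.15, 0.55 to 1.81). Interneuron-like nuclei held 8.19 and 13.4 CPM of Per2 (0.70, 0.21 to 1.21) and 3.65 and 5.54 CPM of Dbp (0.59), whose interval of -0.16 to 1.39 includes 0.

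For Per3 the difference between classes can be set against counting error. The astrocyte-like log2 ratio exceeded that of granule neuron-like nuclei by 0.62 (0.38 to 0.86), that of CA3/CA2-like nuclei by 0.69 (0.46 to 0.91), that of mossy cell-like nuclei by 0.85 (0.56 to 1.13) and that of interneuron-like nuclei by 0.53 (0.20 to 0.86). It differed from the OPC-like ratio by -0.02 (-0.45 to 0.40). For Dbp the same differences had intervals that include 0 against each class, for example 0.80 (-0.18 to 1.77) against CA3/CA2-like nuclei.

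Of the other clock genes, 18 on a list of 23 were measured in these astrocyte-like nuclei, and 3 were 1.5-fold or more higher in WT-CFC and 1 was lower. The higher ones were Usp2, a ubiquitin protease (0.87), Noct, the gene of nocturnin (0.73), and Hlf, the third PAR bZIP factor (0.70). Nampt, an enzyme of NAD synthesis, was lower (-0.60). Bmal1 (-0.41) and Clock (-0.30) were lower by less than the fold, and Npas2 was at 0.12. Of 11 measured glucocorticoid response genes 4 were higher and 1 lower, from Zbtb16 (1.32) to Sgk1 (-0.62). Of 4 measured immediate early genes 2 were higher, from Crem (1.46) to Junb (-0.46). Actg1 in astrocyte-like nuclei stood at 29.0, 84.0 and 124 CPM in WT-naive, WT-CFC and the KO-labelled library, the same order as Dbp, and its part was not tested.

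The second comparison sets the KO-labelled library against WT-CFC, both after CFC training. Of 8 measured members in astrocyte-like nuclei, Dbp was past 1.5-fold higher and none was lower, against 14.9% of all genes higher and 13.6% lower. The log2 ratio of Dbp was 1.21 (0.58 to 1.85), for 24.4 CPM in WT-CFC and 56.5 CPM in the KO-labelled library. Nr1d1 was at 0.56 and Per3 at 0.34, and Per2 (-0.19) and Per1 (-0.07) were on the other side of 0. Npas2 (-0.91, -1.35 to -0.50) and Bmal1 (-0.81, -1.33 to -0.34) were lower, and Bhlhe41, which encodes the repressor DEC2, was higher at 0.83 (0.30 to 1.35). Of 16 other clock genes measured, 2 were higher and 4 lower. Among glucocorticoid response genes 2 of 10 were higher and 5 lower, from Mt1 (1.82) to Zbtb16 (-1.46). Among immediate early genes 2 of 4 were higher and 1 lower, from Junb (2.38) to Nr4a3 (-1.73).

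Over all classes 6 of 59 pairs were higher in the KO-labelled library than in WT-CFC and 2 lower, where the shares over all genes were 15.9% and 10.1%, so the members' shares are not above the background. Ciart was at 2.13 and 6.71 CPM in CA3/CA2-like nuclei of WT-CFC and the KO-labelled library (1.68, 0.70 to 2.55, on 35 and 16 counts). In mossy cell-like nuclei it was at 4.15 and 8.90 CPM (1.11, 0.21 to 1.96). Nr1d2 was lower in oligodendrocyte-like nuclei, at 52.7 and 20.6 CPM (-1.33, -2.12 to -0.65), a level close to the 23.5 CPM of WT-naive, while Per3 there was higher at 0.61 (0.14 to 1.09). The remaining pairs were Nr1d1 (0.75) and Nr1d2 (-0.64) in granule neuron-like nuclei and Nr1d1 in CA3/CA2-like nuclei, whose 0.62 rests on 9 counts and has an interval of -0.66 to 1.62.

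The third comparison sets the KO-labelled library against WT-naive. It shares a library with each of the others, so its values are not separate evidence. In astrocyte-like nuclei 4 of 7 measured members were 1.5-fold or more higher and none lower, where 18.1% of all genes were higher and 14.0% lower. The log2 ratio was 2.36 for Dbp (1.53 to 3.32), 1.01 for Per3 (0.77 to 1.26), 0.66 for Per2 (-0.09 to 1.39) and 0.64 for Nr1d2 (0.05 to 1.21). Nr1d1, on 35 counts over both libraries, was too low to be measured, and its ratio was 2.44 (1.35 to 3.77). Bmal1 was at -1.22 (-1.74 to -0.75) and Npas2 at -0.79 (-1.24 to -0.37). Of the 14 other clock genes measured, 3 were higher (Noct 1.30, Bhlhe41 1.04, Bhlhe40 0.96) and 4 lower. Of glucocorticoid response genes 2 of 9 were higher and 1 lower, from Mt1 (2.13) to Sgk1 (-1.49), and all 3 measured immediate early genes were higher by 1.5-fold, from Junb (1.93) to Crem (1.21).

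Over all classes 13 of 57 pairs were higher and 4 lower, against 17.8% and 9.19% over all genes. The Dbp ratio of astrocyte-like nuclei exceeded that of granule neuron-like nuclei by 1.74 (0.73 to 2.75) and that of CA3/CA2-like nuclei by 1.85 (0.53 to 3.18). The Per3 ratio exceeded theirs by 1.26 (0.99 to 1.53) and 0.93 (0.64 to 1.23). The Bmal1 ratio differed from theirs by -1.18 (-1.69 to -0.66) and -1.28 (-1.83 to -0.73), and differed from that of microglia-like nuclei by 0.00 (-0.84 to 0.85). In OPC-like nuclei Bmal1 was at 75.4, 40.7 and 20.5 CPM on 58, 46 and 7 counts across the 3 libraries. In microglia-like nuclei it was at 57.0, 31.3 and 24.4 CPM. It varied less in CA3/CA2-like (42.0 to 52.0 CPM), granule neuron-like (47.9 to 52.4 CPM) and interneuron-like nuclei (34.7 to 37.8 CPM). In mossy cell-like nuclei it ran from 54.7 CPM in the KO-labelled library to 75.5 CPM in WT-CFC.

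Among pairs outside the astrocyte-like class, microglia-like nuclei held 16.9 and 45.3 CPM of Nr1d2 in WT-naive and the KO-labelled library (1.37, 0.46 to 2.51) and 47.7 and 23.5 CPM of Cry2 (-1.02, -1.82 to -0.23). Ciart was higher in CA3/CA2-like nuclei (1.44, 0.51 to 2.23), but its ratio turned to -0.26 when nuclei were thinned to 1000 UMIs. Cry1 there was lower (-0.60, -1.83 to 0.30) and turned to 0.96 when thinned. Per1 was higher in interneuron-like nuclei (0.65, 0.08 to 1.21), and Per3 in neuroblast-like nuclei (0.80, 0.18 to 1.44), where Cry2 was lower (-0.62, -1.52 to 0.18). Granule neuron-like nuclei had Nr1d1 at 1.26 (0.44 to 2.23), Dbp at 0.62 (0.01 to 1.28) and Nr1d2 at -0.64 (-0.94 to -0.35).

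The granule neuron-like class joined clusters 2 and 8. Cluster 8 held 61, 37 and 1092 nuclei of WT-naive, WT-CFC and the KO-labelled library, and its leading genes included Xist. Without it, an alternative chosen after the data were seen, Dbp in granule neuron-like nuclei of the KO-labelled library was at 3.30 CPM on 9 counts, and its log2 ratio was -0.56 against WT-naive. Nr1d1 stayed at 1.23 and Nr1d2 at -0.72 against WT-naive. The astrocyte-like class was 1 large cluster plus a small one of 38, 22 and 0 nuclei. Markers of other cells in astrocyte-like nuclei also differed between the libraries. Those of microglia summed to 118, 106 and 496 CPM in WT-naive, WT-CFC and the KO-labelled library, with 10, 11 and 11 of 11 markers detected and Csf1r at 0 in WT-naive. Those of oligodendrocytes summed to 135, 152 and 321 CPM, with 11, 10 and 11 of 11 detected and Hapln2 at 0 in WT-CFC. Granule neuron markers were at 651, 943 and 1003 CPM (9, 9 and 8 of 9 detected, Dsp at 0 in the KO-labelled library) and neural stem or progenitor markers at 381, 447 and 592 CPM (8, 9 and 10 of 11 detected, Cdk1 at 0 in all 3), the same order of libraries as Dbp and Per3. CA3 or CA2 markers ran in the reverse order, at 1710, 1489 and 906 CPM with 13 of 13 detected. The part of these shifts in any of the 3 comparisons was not tested.

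Counting a gene against Bmal1 within the same nuclei removes the scaling to the library. The measure was chosen after the values were seen. In astrocyte-like nuclei there were 7.96 counts of Dbp per 100 counts of Bmal1 in WT-naive (4.46 to 13.2), 23.8 in WT-CFC (16.8 to 33.1) and 97.7 in the KO-labelled library (62.7 to 152). For Per3 the counts per 100 of Bmal1 were 134, 284 and 636 there, 141, 426 and 771 in OPC-like nuclei (the last on 7 counts of Bmal1) and 173, 217 and 389 in microglia-like nuclei. Mossy cell-like nuclei had 87.6, 73.8 and 147 of Per3, interneuron-like nuclei 87.6, 96.6 and 132, and neuroblast-like nuclei 89.4, 180 and 185. CA3/CA2-like nuclei had 320, 256 and 325 of Per3 and granule neuron-like nuclei 343, 335 and 297. In CA3/CA2-like nuclei the Dbp figures were 5.91, 6.09 and 7.69, with overlapping intervals, and in granule neuron-like nuclei 11.3, 13.8 and 18.0. Without cluster 8 the last of these rests on 9 counts of Dbp and 139 of Bmal1, which puts it below the other 2. OPC-like nuclei had 5.17, 39.1 and 14.3 on 3, 18 and 1 counts of Dbp. Microglia-like nuclei had 24.3, 33.3 and 67.9, whose intervals overlap. Mossy cell-like nuclei had 6.71, 7.09 and 13.8 of Dbp, and interneuron-like nuclei 9.69, 14.7 and 18.9. Neuroblast-like nuclei had 2.13, 20 and 34.6 on 1, 6 and 9 counts of Dbp.

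**Figure D4:**
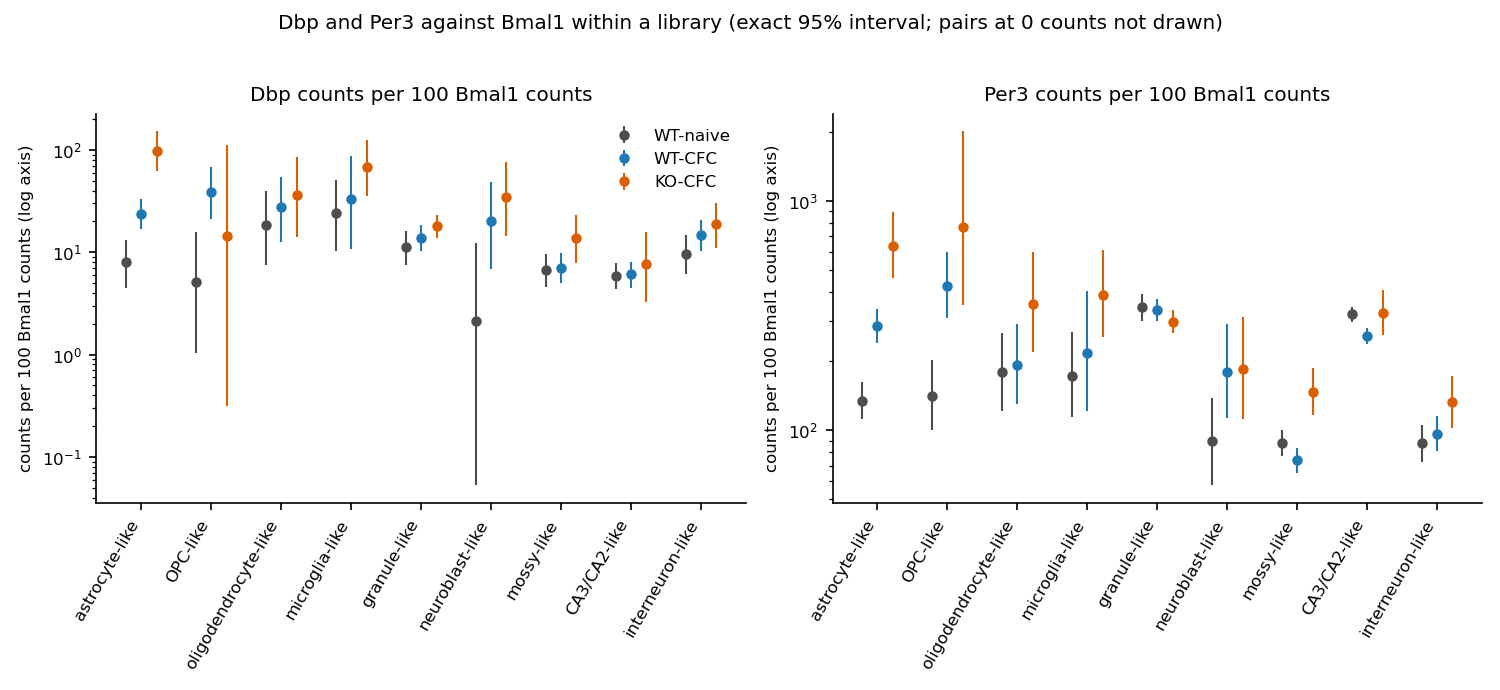
Counts of Dbp (left) and of Per3 (right) per 100 counts of Bmal1, on log axes, in 9 classes of nuclei with 1 point a library and exact 95% intervals. The astrocyte-like points for Dbp run from 7.96 through 23.8 to 97.7, and those of CA3/CA2-like nuclei stay between 5.91 and 7.69. Neuroblast-like points for Dbp run from 2.13 to 34.6 and microglia-like points from 24.3 to 67.9, on few counts.

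The comparison of cells sets CFC training against random foot shocks, 14 days after each. No pair of member and class reached 1.5-fold in either direction among 57 with at least 50 counts, where 5.51% of all pairs were higher and 3.96% lower in CFC-14d. In astrocyte-like cells Dbp was at 65.2 CPM in CFC-14d and 72.5 CPM in Random-14d (84 and 93 counts), a log2 ratio of -0.15 (-0.60 to 0.29). Per3 was at 0.40 (0.02 to 0.79), Cry2 at 0.04 (-0.48 to 0.55), Tef at -0.15 (-0.64 to 0.34) and Nr1d1 at -0.05 (-0.76 to 0.66). The median over the 6 measured members of that class was -0.01, against 0.03 over all genes. Per2, on 24 and 11 counts, was under the minimum, at 1.08 (0.03 to 2.30). The pairs farthest from 0 were Dbp in erythroid-like cells (0.57) and Per3 in pericyte-like cells (-0.51). Of all genes measured in erythroid-like cells, 16.9% were higher by 1.5-fold, and their median log2 ratio was 0.25. In microglia-like cells the members ran from -0.46 for Per3 (488 and 749 counts) to 0.31 for Nr1d2.

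**Figure D5:**
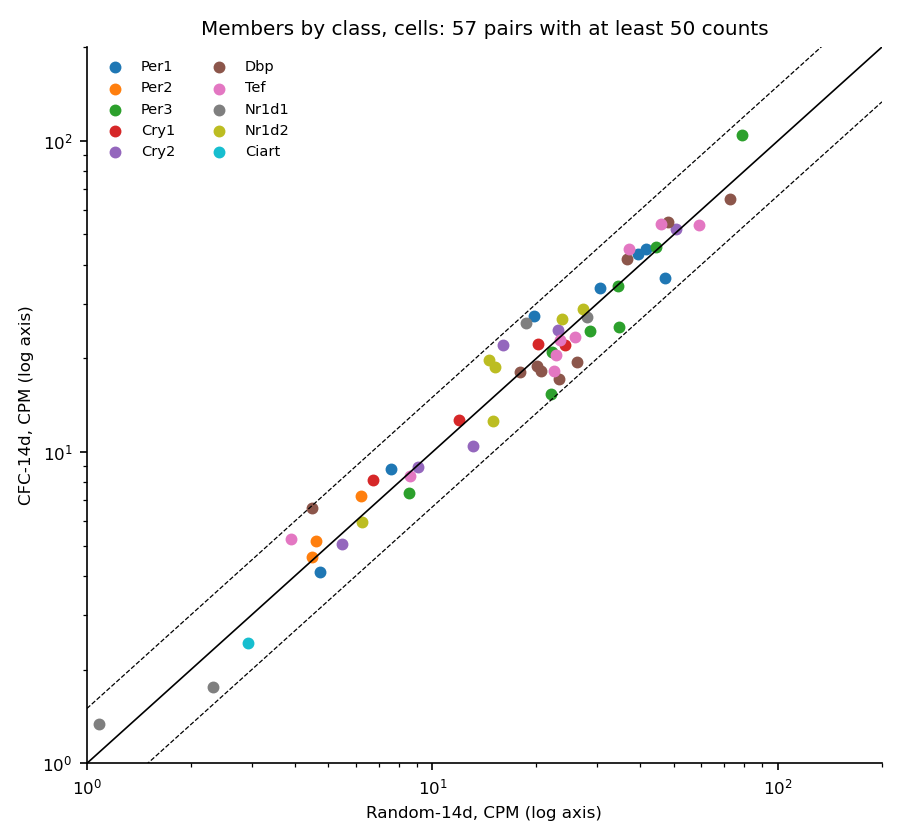
Level of each member in each class of cells with at least 50 counts (57 points), with Random-14d on the horizontal and CFC-14d on the vertical log axis in CPM. The solid line marks equal levels and the dashed lines 1.5-fold, and all points lie between the dashed lines.

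Bmal1 in astrocyte-like cells was at 58.2 and 52.3 CPM in CFC-14d and Random-14d, so Dbp stood at 112 and 139 counts per 100 counts of Bmal1 there. By the same measure, Dbp in microglia-like cells stood at 162 (135 to 194) and 287 (242 to 343). Per3 there stood at 239 (203 to 283) and 428 (363 to 507), so both were apart and lower in CFC-14d. In pericyte-like cells Dbp stood the other way, at 117 and 104, with overlapping intervals. These values come from whole cells of another preparation and are not compared with those of nuclei. Of the 14 other clock genes measured in astrocyte-like cells, 1 was higher in CFC-14d, Btrc (0.76), a ubiquitin ligase subunit, and none lower. Clock had the lowest ratio, -0.40.

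Several members overlap another gene in the annotation: Nr1d1 and Thra, Dbp and Sphk2, Ciart and C920021L13Rik, Cry2 and D930015M05Rik, and Tef and Gm17597 on opposite strands, and Per3 and Camta1 on the same strand. No source used here says whether counting used the strand, so reads of the members of each pair cannot be told apart.

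Genes with a profile across classes most like that of a member are named by correlation of log2 CPM, as a description over points that share libraries and depth. Over 17 classes of cells, Nr1d1 was nearest to Adk (r = 0.92) and Prex2 (0.87), Dbp to Ugp2 (0.83) and Phkb (0.83), Per3 to Paqr7 (0.87) and Cry1 to Rit1 (0.93). Over 9 classes of nuclei, Dbp was nearest to Tmem254 (0.96) and Timm23 (0.95), Per3 to Boc (0.91) and Tef to Serpina3n (0.97). The nuclei give 9 points and 10642 genes were searched, so nothing further is read from them.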

How the data were processed

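The authors deposited unnormalized UMI counts for 2 libraries of cells and 3 of nuclei. Tools named in the submitters' processing notes are Cell Ranger 8.0.1 and Seurat 5.4.0, with builds GRCm39 and mm39. Barcodes with at least 500 UMIs, 300 genes and at most 20% (cells) or 5% (nuclei) mitochondrial UMIs were kept. In each library the 8% with the highest Scrublet-type doublet score were then removed. Cells and nuclei were clustered apart (2000 variable genes without clock genes, 30 components, 15 neighbours, Leiden resolution 1) and named from at least 3 markers. Counts were summed per class and library and scaled to 1000000 (CPM). Log2 ratios had 0.5 counts added, with exact conditional binomial 95% intervals. Genes had at least 50 counts over both libraries and classes at least 100 barcodes in each, and called means 1.5-fold. PCR and droplet error beyond counting is not covered. The ratios were also run on simulated counts that held counting error alone, so that run does not cover spread between mice or libraries. Members and lists were chosen with earlier results of these data known. Named genes were all members, set activators and repressors, and the highest and lowest of each list. Software was Python 3.11.15 with numpy 2.4.6, scipy 1.17.1, igraph 0.11.9 and leidenalg 0.10.2. One gene that this rule would name is not reported here.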

Additional observations from a re-analysis of the deposited data

Results flagged for a closer look

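Nr1d2 in the KO-labelled library against WT-naive was higher in astrocyte-like and microglia-like nuclei and lower in granule neuron-like nuclei, with the counting interval of each of these 3 classes apart from 0. OPC-like nuclei (61.1 and 55.5 CPM) and oligodendrocyte-like nuclei (23.5 and 20.6 CPM) were within counting error. The log2 ratio was 0.64 in astrocyte-like nuclei (0.05 to 1.21, for 39.8 and 61.8 CPM in WT-naive and KO-CFC). It was 1.37 in microglia-like nuclei (0.46 to 2.51, for 16.9 and 45.3 CPM) and -0.64 in granule neuron-like nuclei (-0.94 to -0.35, for 35.6 and 22.8 CPM). With 1 library a group the difference between classes was not tested. Under 13 other settings the astrocyte-like ratio ran from 0.16 to 0.83 and passed 1.5-fold in 7. The microglia-like ratio passed in 12 of 12 settings and the granule neuron-like ratio in 11 of 13. Cluster 8, which is mostly of the KO-labelled library, belongs to the granule neuron-like class, and without it the ratio there was -0.72.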

How the results depend on the processing

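No paired analysis was possible because each group has 1 library, and for the same reason no library could be left out. Of 416 values of the 34 pairs past 1.5-fold under other settings, 404 stayed within the counting interval and 69 were under the fold; 12 pairs passed it under every setting run. In astrocyte-like nuclei Nr1d1, Dbp and Per2 (WT-CFC over WT-naive) and Dbp and Per3 (KO-CFC over WT-naive) passed in all 13. Per3 (WT-CFC over WT-naive) and Dbp (KO-CFC over WT-CFC) passed in 12 of 13. For KO-CFC over WT-naive, Per2 passed in 9 of 13 and Nr1d2 in 7 of 13. Reversed were Per3 in neuroblast-like nuclei (-0.41, each library clustered on its own), Dbp in granule neuron-like nuclei (-0.56, without cluster 8), and, thinned to 1000 UMIs, Cry1 (0.96) and Ciart (-0.26) in CA3/CA2-like nuclei.

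Counts of pairs past the fold moved as follows, higher first, then lower, where both moved. CFC-14d over Random-14d (0 and 0) gave 8 and 6 with at least 20 counts, 5 higher with no doublets removed, 2 lower with 15% removed, 1 lower at Leiden resolution 2, 3 lower with libraries clustered alone, 1 higher with clock genes among the variable genes, and 1 and 4 with barcodes weighted equally. WT-CFC over WT-naive (9 and 0) gave 5 higher at 100 counts, 3 higher at 2-fold, 4 and 1 when thinned, and 1 lower with median-of-ratios scaling, 20 counts, no doublets removed, resolution 2, libraries alone and clock genes among the variable genes. In astrocyte-like nuclei (4 and 0) it gave 2 higher at 100 counts and at 2-fold, and 1 lower at resolution 2 and with clock genes among the variable genes.

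KO-CFC over WT-CFC (6 and 2) gave 10 and 1 on totals without mitochondrial, ribosomal, haemoglobin genes and Malat1, 12 and 5 at 20 counts, 1 higher at 100 counts, 3 and 1 at 2-fold, 4 lower with no doublets removed, 1 higher with 15% removed, 6 lower with libraries alone, 4 lower with clock genes among the variable genes, 3 and 1 thinned and 6 lower weighted equally. In astrocyte-like nuclei (1 higher) it gave 2 with median of ratios, on those totals, at 20 counts, with 2 counts added, under the stricter mitochondrial limit and weighted equally, and 0 at 100 counts and thinned. KO-CFC over WT-naive (13 and 4) gave 2 lower on those totals, 21 higher at 20 counts, 4 and 2 at 100 counts, 2 lower with 2 counts added, 5 and 1 at 2-fold, 2 lower with no doublets removed, 7 and 1 with libraries alone and 4 and 0 thinned. In astrocyte-like nuclei (4 higher) it gave 2 with the large cluster alone (chosen after seeing the data), at 100 counts, at 2-fold, with libraries alone and with clock genes among the variable genes, and 1 thinned.

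The 5 members highest in astrocyte-like cells became 2 at resolution 2, and 3 with libraries alone, thinned or weighted equally; by share of barcodes 4 became 1 unthinned and 7 at 2000 UMIs, and for nuclei 4 became 0 and 2. Over whole libraries KO-CFC over WT-CFC (2 higher) gave 4 under the stricter mitochondrial limit and on those totals and 1 with 15% removed. The cause was not tested. Depth limits Ciart, Per2, Cry1 and Nr1d1, which have under 50 counts in many classes.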

Other observations

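Vessel-associated nuclei were too few or too mixed to enter the comparisons. An unnamed cluster of 59, 57 and 86 nuclei (WT-naive, WT-CFC and the KO-labelled library) led by endothelial and pericyte genes held 3.56, 37.7 and 89.2 CPM of Dbp on 1, 9 and 23 counts. Its Nr1d1 was at 0, 16.8 and 27.1 CPM on 0, 4 and 7 counts and its Bmal1 at 67.6, 54.5 and 38.8 CPM. Per3 there was at 92.5, 96.4 and 101 CPM, within counting error. Pericyte-like nuclei (30, 55 and 27) held 0, 9 and 5 counts of Dbp and 3, 3 and 0 counts of Bmal1. In WT-naive the count of 0 for Dbp allows up to 74.5 CPM at the upper end of its exact interval.

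A second unnamed cluster, whose leading genes include Tnc and Thrsp, of 234, 117 and 162 nuclei held 202, 240 and 324 CPM of Per3 and 164, 106 and 56.2 CPM of Bmal1, on 69, 27 and 17 counts of Bmal1. Its Dbp was at 14.2, 11.8 and 29.8 CPM on 6, 3 and 9 counts. These clusters were picked out after their values were seen.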
